A study of Homo sapiens with 6 samples.

Results

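The clustered replication-dependent histone genes are the gene copies, grouped on chromosomes 6 and 1, that encode the linker histone H1 and the core histones H2A, H2B, H3 and H4. They were taken from the deposited count table as every protein-coding gene whose symbol is H2AC, H2BC, H3C or H4C followed by a number, or H1-1 to H1-6. The rule found 44 of the 30618 genes in the table, of which 16578 are protein-coding. By class they were 2 H1, 12 H2A, 12 H2B, 7 H3 and 11 H4 genes, with 37 on chromosome 6 and 7 on chromosome 1. The measurements came from ARPE-19, a long-established human cell line of retinal pigment epithelium. All cells were kept in 50 mM glucose as a model of diabetic retinopathy, so both groups share the high glucose. The NC group received a negative control siRNA and the siEIF1 group an siRNA against EIF1, a factor in start codon selection during translation initiation. Each group has 3 biological replicates, and each library was made from polyadenylated RNA caught on oligo(dT) beads. Levels are given as counts, as CPM, the counts scaled to a common library size, and as the authors' FPKM, which is per kilobase of gene model.

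Replication-dependent histone genes supply the proteins that package newly made DNA, and dividing cells transcribe them mainly in S phase. Their messenger RNAs are the known exception to polyadenylation in animal cells: the transcript is cut just after a short stem-loop, which the stem-loop binding protein SLBP recognises. NPAT, activated by cyclin E and CDK2, switches on their transcription. Polyadenylated forms of some of these genes are also known, made from a signal downstream of the stem-loop. Replacement histones such as H3-3B lie outside the clusters and carry ordinary polyadenylated messages.

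The stem-loop is shown because it decides how these messages end, and because the libraries select for the other kind of end. In GENCODE release 44 on GRCh38, 43 of the 44 genes were found by identifier (not H2AC19), and each has a single-exon canonical transcript that holds a 16-base stem-loop in its 3′ UTR. In 42 of the 43 the stem-loop lies within 20 bases of the annotated end, and in H2BC21 the canonical transcript runs 1729 bases past it. The sequences below are from the transcript strand, 5′ to 3′, with the stem-loop in capitals and up to 5 flanking bases on either side.
H2AC6 (chr6:26124664-26124689, plus strand): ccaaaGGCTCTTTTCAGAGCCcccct
H2BC12 (chr6:27146361-27146386, minus strand): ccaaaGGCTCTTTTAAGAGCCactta
H2BC5 (chr6:26158582-26158607, plus strand): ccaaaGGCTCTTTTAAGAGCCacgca
H2BC21 (chr1:149886183-149886208, minus strand): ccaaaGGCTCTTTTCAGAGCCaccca
H1-2 (chr6:26055740-26055764, minus strand): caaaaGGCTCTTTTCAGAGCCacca
H3C6 (chr6:26225591-26225616, plus strand): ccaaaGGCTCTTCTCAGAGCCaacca
H4C8 (chr6:26285126-26285151, minus strand): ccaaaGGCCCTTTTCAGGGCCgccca

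The most common form, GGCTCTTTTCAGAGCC, was in 22 genes of the H1, H2A, H2B and H3 classes. Of the H4 genes, 7 hold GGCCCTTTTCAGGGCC and 4 hold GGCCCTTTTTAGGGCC, and neither form was found in another class. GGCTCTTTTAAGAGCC was in 5 H2B genes and 1 H2A gene. The form printed for H3C6 was found in 1 gene alone.

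The libraries held 26499929 to 31431479 counts each, and 16749 genes passed the filter on low counts and were tested. EIF1, the target, lay between 1230 and 1300 CPM in the NC libraries and between 103 and 109 CPM in the siEIF1 libraries, as the labels say. Of 18 retinal pigment epithelium markers, 13 were tested and 3 of them passed the test, all higher. They were RLBP1, which binds retinaldehyde, and the keratin genes KRT8 and KRT18 (log2 fold changes 1.55, 0.24 and 0.25). RLBP1 was at a low level, with means of 0.53 CPM in NC and 1.55 CPM in siEIF1. BEST1, an epithelial chloride channel, was at a mean of 699.5 CPM in NC and 559.8 CPM in siEIF1 (log2 fold change -0.32, edgeR adjusted p = 0.106). No marker of this list was lower by edgeR's test (0 by DESeq2), and BEST1 was the 1 marker lower at an unadjusted p under 0.05. Of 17 markers of photoreceptors, glia, vessels and blood cells 4 were tested and 1 was higher, GLUL, the glutamine synthetase gene (log2 fold change 0.18). Their part in the histone results was not tested. RNA was measured in bulk, so fewer cells of a type and less RNA per cell cannot be told apart.

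Counts of the histone genes were low and very uneven. All 44 together held 9498 counts over the 6 libraries, and H2AC6 and H2BC12 alone held 64.6% of them. Of the 44, 11 passed the count filter, and these 11 held 95.6% of the histone counts. In 10 of the 11 each of the 6 libraries lay above the level of the filter, so they did not pass through 1 group alone. The other 33 had between 1 and 49 counts over all libraries, and the lowest that passed was H2AC11 with 86.

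Of the 11 genes tested, 6 rose in siEIF1 at an adjusted p under 0.05 by the quasi-likelihood test of edgeR (Benjamini-Hochberg adjustment, 16749 genes): H2AC6, H2BC12, H1-2, H2BC21, H2BC5 and H3C6. Over all genes tested, 10.2% were higher by the same rule. No histone gene was lower by this rule (0 at an unadjusted p under 0.05, and 0 by DESeq2), against 10.4% of all genes. With the study's further limit of a 2-fold change, 1 gene was higher, H3C6, against 0.4% of all genes, and 0 were lower, against 1.31%. Of all 44 histone genes, 8 had every siEIF1 library above every NC library in CPM and 0 the reverse, against 11.0% and 12.2% of the 30618 genes in the table. Among the genes tested these were 7 of 11 and 0 of 11, against 18.2% and 18.9% of all tested genes. The median log2 fold change of the 11 was 0.61, against 0.0033 over all genes tested. These 11 genes share libraries and partly sequence and are not replicates of each other.

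**Figure D1:**
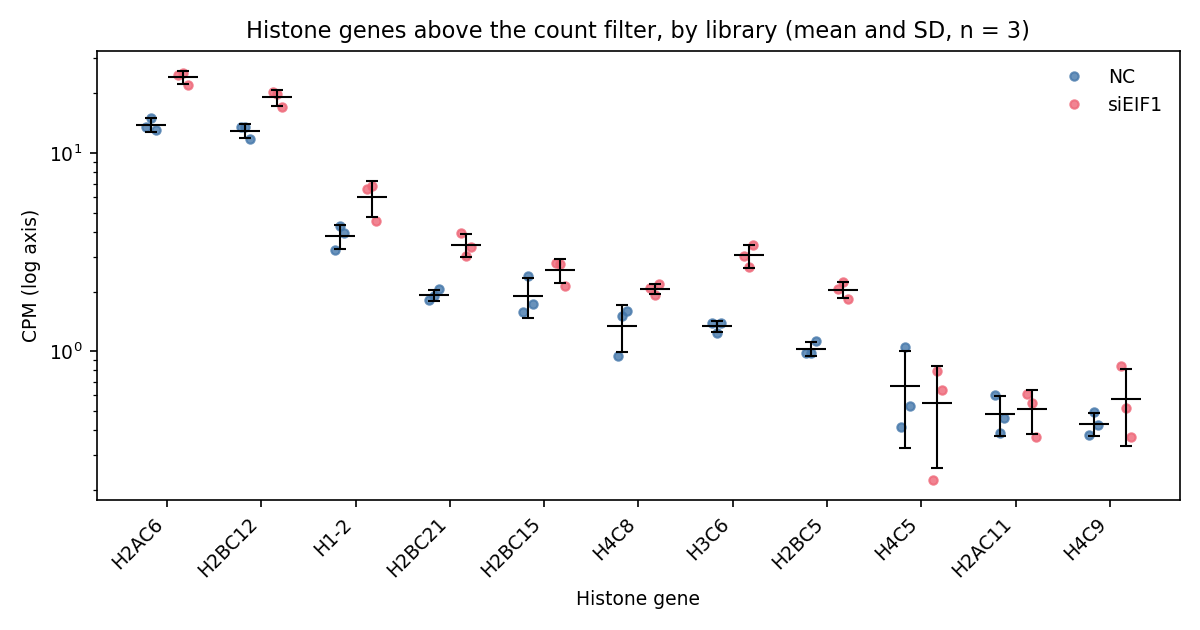
CPM (log axis) of the 11 histone genes above the count filter, with 1 point per library, and the mean and SD of the 3 NC and 3 siEIF1 libraries as bars. H2AC6 and H2BC12 lie above 10 CPM in every library, and for H2BC15, H4C5, H2AC11 and H4C9 the points of the groups overlap.

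Among the H2A genes, which encode the core histone paired with H2B in the nucleosome, H2AC6 had the most counts of all 44 genes. NC libraries 1, 2 and 3 held 362, 431 and 367 counts of H2AC6, and the siEIF1 libraries 771, 739 and 658. Every siEIF1 library was above every NC library, and the gene rose from 13.9 ± 1.11 to 24.1 ± 1.8 CPM (SD, n = 3 each). Its log2 fold change was 0.79 (SE 0.0817, edgeR adjusted p = 2.11e-05), the smallest adjusted p of the histone genes. H2AC11, the other H2A gene tested, held 16, 11 and 13 counts in NC and 19, 16 and 11 in siEIF1. The groups overlapped, and the log2 fold change of 0.09 had a range from -0.6 to 0.77 at 2 SE on either side (edgeR adjusted p = 0.898). At this depth a change of H2AC11 of the size measured in H2AC6 lies just outside that range.

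The other 10 H2A genes stayed under the filter. H2AC8 held 4, 5 and 8 counts in NC and 5, 5 and 9 in siEIF1, and H2AC20 3, 1 and 9 against 0, 5 and 3. H2AC15 held 5 counts over NC and 13 over siEIF1. H2AC14 and H2AC19 had 4 counts each over all libraries, H2AC12 had 3, H2AC21 had 2, and H2AC4, H2AC7 and H2AC13 had 1 each. Without H2AC6, the summed CPM of the H2A class was 1.01 ± 0.108 in NC and 1.04 ± 0.177 in siEIF1, and the groups overlapped.

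H2B, the partner of H2A, was the class with the most genes tested, 4. All of these but H2BC15 passed the test, against 10.2% of all genes tested that were higher. H2BC12 held 358, 388 and 335 counts in NC and 632, 580 and 510 in siEIF1, with no overlap between the groups. It rose from 12.99 ± 0.987 to 19.1 ± 1.78 CPM (SD, n = 3 each), a log2 fold change of 0.56 (SE 0.0881, edgeR adjusted p = 0.000618). The authors' FPKM were 21.5 ± 1.4 in NC and 31.2 ± 2.44 in siEIF1 for H2BC12, and 6.84 ± 0.475 and 11.7 ± 0.65 for H2AC6. These levels are not ranked, since the length behind the FPKM was 495 bases for H2BC12 and 1668 bases for H2AC6, whose canonical transcript has 519.

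H2BC21, the one chromosome 1 gene of the 11, held 48, 54 and 58 counts in NC and 122, 88 and 100 in siEIF1. All its siEIF1 libraries were above all its NC libraries, and it rose with a log2 fold change of 0.84 (SE 0.17, edgeR adjusted p = 0.00343). H2BC5 held 26, 28 and 32 counts in NC against 64, 65 and 55 in siEIF1. It rose 1.98-fold (log2 fold change 0.98, SE 0.206, edgeR adjusted p = 0.00427), just inside the 2-fold limit. H2BC15 held 42, 68 and 49 counts in NC and 87, 80 and 64 in siEIF1. Its NC library 2 lay above its siEIF1 library 3 in CPM (2.39 and 2.14), and it did not pass the test (log2 fold change 0.43, SE 0.204, edgeR adjusted p = 0.165).

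Of the 8 H2B genes under the filter, H2BC8 stood out by its counts, which were 2, 4 and 2 in NC and 13, 18 and 5 in siEIF1. The groups did not overlap in CPM, the highest NC value being 0.141 and the lowest siEIF1 value 0.167. In a fit of all genes with no count filter its log2 fold change was 2.01 (SE 0.611, edgeR adjusted p = 0.0119), and 0.307% of the genes in that fit were higher past the same limits. H2BC6 held 8, 3 and 2 counts in NC and 17, 9 and 3 in siEIF1, and H2BC11 held 6, 1 and 5 against 6, 10 and 10. H2BC18 held 5, 8 and 8 against 11, 9 and 8, and H2BC4 held 4, 8 and 1 against 4, 5 and 2. In these 4 genes the groups overlapped. H2BC7 had 3 counts, all in NC, and H2BC13 and H2BC14 had 1 each.

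H3C6 was the one H3 gene tested. It encodes a copy of the core histone H3, whose tail carries many of the known histone marks. It held 37, 35 and 39 counts in NC and 94, 77 and 103 in siEIF1, with no overlap. It rose 2.28-fold (log2 fold change 1.19, SE 0.186, edgeR adjusted p = 0.000589), the highest fold of the 11 genes. Whether it differs from the folds of the other genes was not tested. The other H3 genes were close to absent from the counts. H3C10 held 4, 3 and 5 counts in NC and 2, 7 and 4 in siEIF1, H3C2 had 4 counts, all in NC, and H3C1, H3C3, H3C7 and H3C12 had 1 each.

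H4, the core histone paired with H3, had no gene past the test (0 by edgeR, 1 at an unadjusted p under 0.05, 0 by DESeq2). H4C8 held 25, 43 and 45 counts in NC and 65, 56 and 65 in siEIF1. The groups did not overlap in CPM (highest NC 1.59, lowest siEIF1 1.93), and the log2 fold change was 0.61 (SE 0.221, edgeR adjusted p = 0.0691). H4C9 held 10, 14 and 12 counts in NC and 26, 15 and 11 in siEIF1, and 1 siEIF1 library lay apart from the other two. Its log2 fold change was 0.41 (SE 0.37, edgeR adjusted p = 0.49). H4C5 held 11, 30 and 15 counts in NC and 7, 23 and 19 in siEIF1, with wide spread in both groups. It was the one tested gene with a negative value, -0.29 (SE 0.448, edgeR adjusted p = 0.703). Under the filter, H4C14 held 4, 5 and 3 counts against 7, 9 and 1, and H4C15 held 3, 3 and 1 against 1, 1 and 2. H4C3 had 10 counts, H4C2 7, H4C12 5, H4C4 3, and H4C1 and H4C11 1 each.

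H1 links nucleosomes to each other. H1-2 held 86, 122 and 111 counts in NC and 205, 199 and 136 in siEIF1. The groups did not overlap in CPM, but siEIF1 library 3 (4.55 CPM) lay close to NC library 2 (4.29 CPM). It rose with a log2 fold change of 0.65 (SE 0.169, edgeR adjusted p = 0.015). This call was lost without NC replicate 1 (edgeR adjusted p = 0.0741) and without siEIF1 replicate 2 (0.0807). H1-4, the other H1 gene, held 3, 6 and 7 counts in NC and 1, 5 and 0 in siEIF1. In the fit with no count filter its log2 fold change was -1.47 (SE 0.826, edgeR adjusted p = 0.33).

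At the low end, 11 of the 44 genes had 1 count over all 6 libraries, 20 had under 10 counts, and 20 had a count in every library. All siEIF1 libraries were at 0 for 10 genes and all NC libraries for 4. The 10 were H2AC4, H2AC7, H2AC12, H2BC7, H2BC14, H3C1, H3C2, H3C3, H3C12 and H4C1, and the 4 were H2AC13, H2BC13, H3C7 and H4C11. Their NC or siEIF1 sums of 1 to 4 counts lie around the 3 counts that a count of 0 allows, so no fold is given.

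Summed by class, H3 differed most between the groups and H4 least. The sums carry no test, and reads that map to more than 1 near-identical copy were not counted, so a sum does not hold them. Summed CPM of H1 was 4.01 ± 0.591 in NC and 6.07 ± 1.32 in siEIF1, a ratio of 1.51 ± 0.399 (SD from both groups, n = 3 each). H2A went from 14.9 ± 1.04 to 25.1 ± 1.71 CPM (ratio 1.68 ± 0.164), and H2B from 18.7 ± 1.23 to 28.6 ± 2.85 CPM (1.53 ± 0.183). In both classes every siEIF1 library was above every NC library. H3 was at 1.56 ± 0.018 CPM in NC and 3.2 ± 0.354 in siEIF1 (2.05 ± 0.228), and H3C6 held most of its counts. H4 was at 2.88 ± 0.64 and 3.54 ± 0.19 CPM (1.23 ± 0.281), where the groups overlapped. Without H4C8, H4 was at 1.53 ± 0.359 in NC and 1.47 ± 0.317 in siEIF1. The 33 genes under the filter summed to 2.23 ± 0.18 CPM in NC and 2.55 ± 0.597 in siEIF1, and these groups overlapped too.

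**Figure D2:**
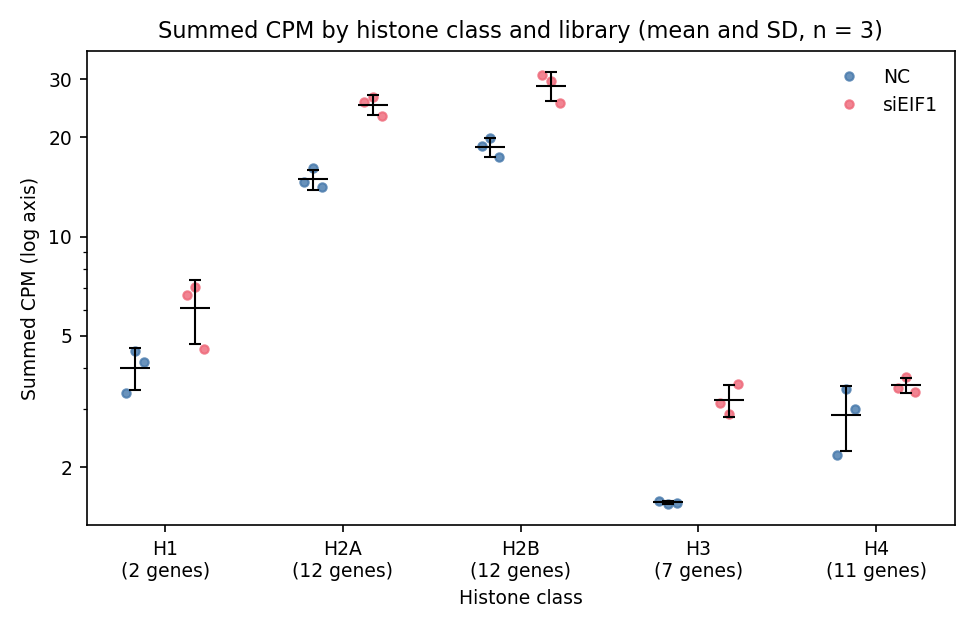
Summed CPM (log axis) of each histone class by library, with the mean and SD of 3 NC and 3 siEIF1 libraries as bars. The groups are apart in H1, H2A, H2B and H3 and overlap in H4, where NC library 2 (3.44 CPM) is above siEIF1 library 3 (3.38 CPM).

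By chromosome, the ratio of summed CPM was 1.58 ± 0.18 for the 37 genes on chromosome 6 and 1.6 ± 0.194 for the 7 on chromosome 1, where H2BC21 held 470 of 586 counts. The chromosome 6 genes were split by position into 2 groups. The first spans 265.1 kb with 22 genes and 5447 counts, and its ratio was 1.68 ± 0.198. The second spans 758.5 kb with 15 genes and 3465 counts, and its ratio was 1.44 ± 0.179. H2AC6 held 3328 of the counts in the first and H2BC12 2803 of those in the second. The second group has a wide gap of its own, from H2AC12 at 1126.7 kb to H2BC13 at 1787 kb from the first gene on the chromosome. Genes with counts and genes without lay side by side in both groups. In the first group 4 of 6 tested genes rose (H1-2, H2AC6, H2BC5 and H3C6), and in the second 1 of 4 (H2BC12). Over all genes tested, 10.2% were higher, and the difference between the 2 groups was not tested.

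**Figure D3:**
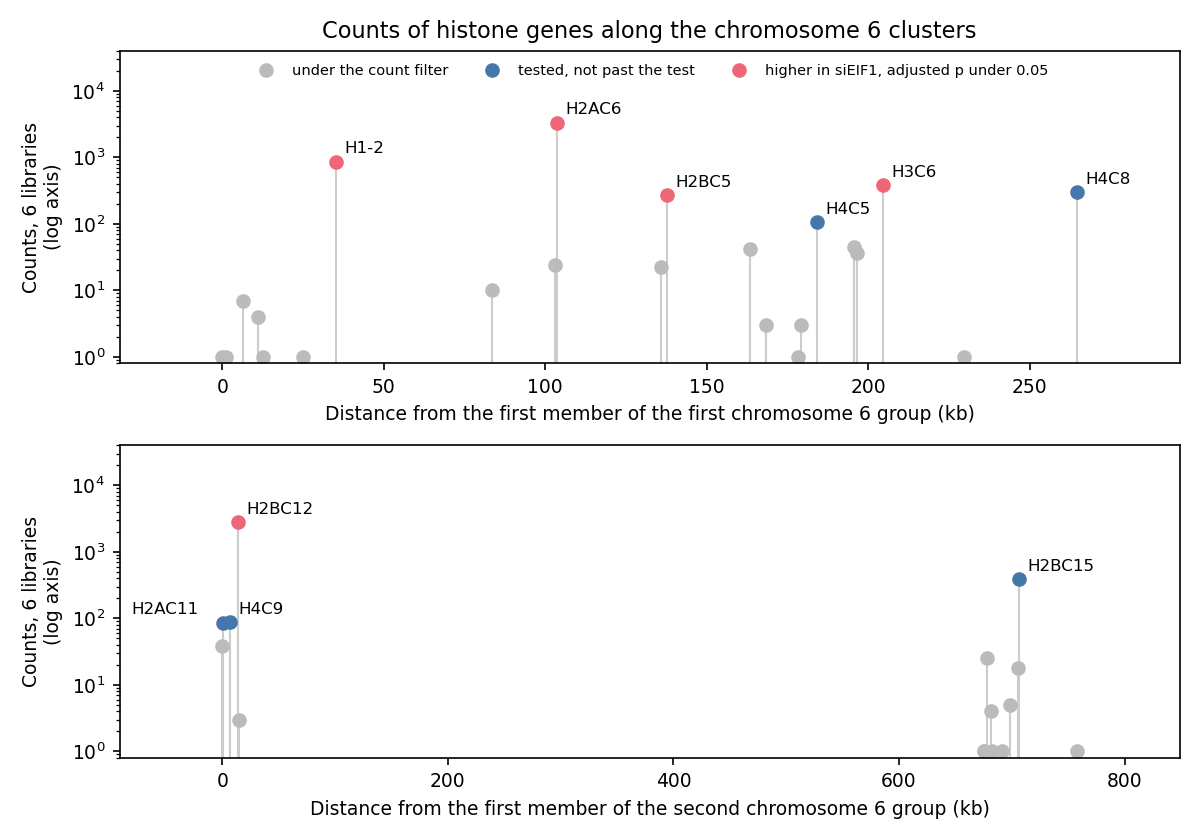
Counts of each histone gene summed over 6 libraries (log axis) against its distance in kb from the first gene of its group, for both chromosome 6 groups, coloured by the test. Genes with more than 100 counts stand beside neighbours with fewer than 10 counts in both groups.

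Many H2A and H2B genes are known to lie head to head and to share the stretch between their start sites. Among the 43 annotated genes, 9 such H2A and H2B pairs had canonical starts within 500 bases of each other, 193 to 250 bases apart, with opposite strands. In 5 pairs 1 partner passed the count filter, in 4 pairs neither did, and in 0 pairs did both. H2AC6 held 3328 counts and its neighbour H2BC4 24, or 6.84 and 0.153 FPKM in NC. H2BC12 held 2803 and H2AC12 3, or 21.5 and 0.0633 FPKM. H2BC21 held 470 counts beside 21 of H2AC20, and H2BC15 390 beside 18 of H2AC15. The gap was narrow in other pairs, with 86 counts of H2AC11 and 38 of H2BC11, and 44 of H2BC8 and 36 of H2AC8. The partners that rose were H2AC6, H2BC12 and H2BC21, and their neighbours H2BC4, H2AC12 and H2AC20 had 13, 3 and 13 counts over NC and 11, 0 and 8 over siEIF1.

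The start regions were searched for 4 known motifs on both strands, from 250 bases before to 50 after each RefSeq start (GRCh38.p14), and no motif contains another. A start region was found for 40 of the 44 genes. The octamer ATTTGCAT, the element that the factor POU2F1 (Oct-1) is known to bind in H2B promoters, was in 9 of 12 H2B and 8 of 11 H2A regions, in 0 of the H1, H3 and H4 regions, and in 1.77% of all 35116 promoters. Of the H2B genes tested, H2BC12 and H2BC21 hold it and H2BC5 and H2BC15 do not, while both H2A genes tested hold it. In H2BC21 the octamer lies 46 bases before the start. It lies as far before a RefSeq start of H2BC12, which has another start a few bases away. In H2BC11, H2BC8, H2BC14 and H2BC18, all under the count filter, it lies 47 to 49 bases before the start. In H2BC4, H2BC6 and H2BC7, also under the filter, it lies 108 to 123 bases before it. The windows of H2BC12 and H2BC21 are printed, with the octamer in capitals, because both genes rose and hold it.
H2BC12 (chr6:27146887-27146914, minus strand): tcttcaccttATTTGCATgagaggtcct
H2BC21 (chr1:149886711-149886738, minus strand): cggagccctaATTTGCATaaggtggtta

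TATAAA was in 28 of the 40 regions, against 11.53% of all promoters, and CCAAT in 32, against 34.61%. CCAAT was in every H1, H2A, H2B and H3 region and in 1 of 9 H4 regions, that of H4C9. The H1 element AAACACA was in both H1 genes and in H2AC20, against 5.64% of all promoters. Of the genes that rose, H2BC5 and those of the H1 and H3 classes have no octamer match in this window. H2AC6, H2BC12 and H2BC21, which also rose, hold it. The part of the octamer in the rise was not tested.

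The annotated messages of these genes differ in how they end. GENCODE lists, for 14 of the 43 genes, a transcript that runs more than 100 bases past the stem-loop or lacks it, and for 29 genes transcripts with a stem-loop end only. H2AC6 has a 1668-base transcript that runs 1128 bases past the stem-loop, H3C6 a 2679-base transcript that runs 1862 bases past it, and H4C8 a 2163-base transcript that runs 1655 bases past it. H2BC12 and H1-2 have the stem-loop end as their annotated end. The 14 genes had a summed CPM of 22.6 ± 1.5 in NC and 38.7 ± 2.32 in siEIF1, a ratio of 1.71 ± 0.154, and the 29 genes of 19.5 ± 1.41 and 27.9 ± 3.31, a ratio of 1.43 ± 0.199. Every siEIF1 library was above every NC library in both sets, and the difference between the ratios was not tested. The split follows GENCODE and not the authors' models, and the 29 genes include H2AC11, H4C5, H4C9 and H2BC8, whose length behind the FPKM was 4.55, 3.61, 3.26 and 3.15 times the canonical transcript. Of the 6 genes that rose, H2AC6, H3C6, H2BC5 and H2BC21 are among the 14, and H2BC12 and H1-2 are among the 29.

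The deposited FPKM also carry the gene length by which they were divided, which need not be the model that reads were counted on. The ratio of count to FPKM gives a length per gene. It was divided by 1.227, the median of its ratio to the annotated length in 792 genes with 1 transcript. Among the 21 histone genes with at least 20 counts, this length was over 1.5 times that of the canonical transcript in 15. For H2AC6 it was 1668 bases against a canonical 519, for H3C6 2684 against 482, for H4C8 2163 against 409, and for H2BC15 5390 against 542. The length of H2BC15 was above that of its longest GENCODE transcript, 4137 bases. For H2BC12, H1-2 and H2BC21 it was 495, 731 and 2192 bases against a canonical 495, 731 and 2224. FPKM of H2AC6 and H3C6 are therefore per kilobase of a longer model than the stem-loop message. Which form the reads came from cannot be told apart in counts per gene.

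**Figure D4:**
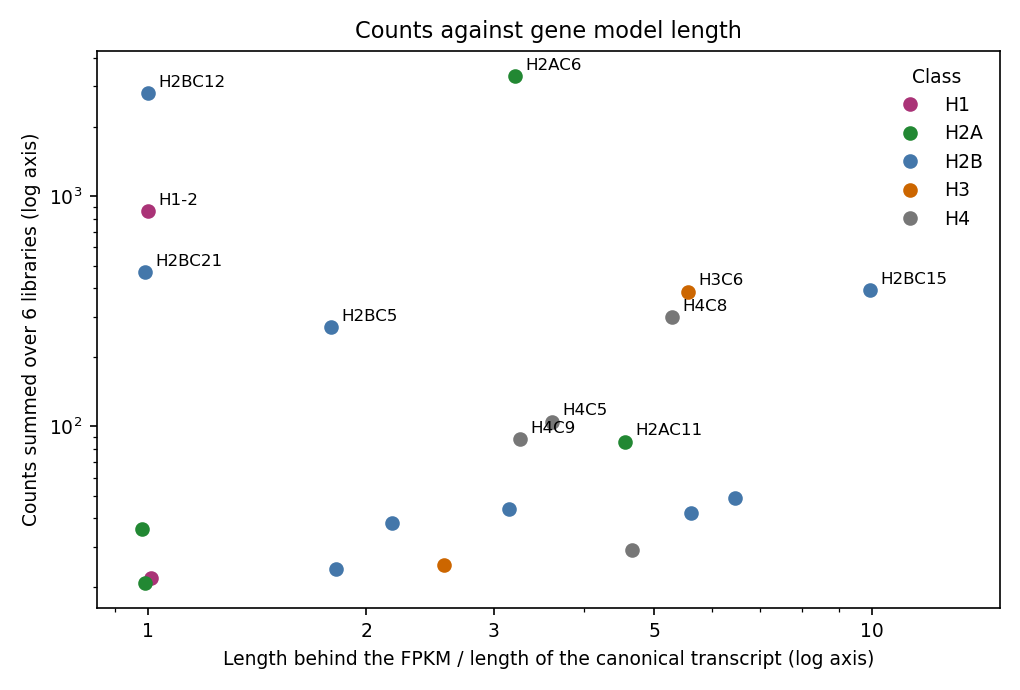
Counts summed over 6 libraries against the ratio of the length behind the FPKM to the canonical transcript length (both axes log), for 21 histone genes coloured by class. H2BC12, H1-2 and H2BC21 lie at a ratio near 1, and H2AC6 (3.21), H3C6 (5.57) and H2BC15 (9.94) lie far above it.

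Sequence shared with transcripts of other genes limits the H4 and H2A genes most. Of the canonical transcripts, 13 share 100-base windows with another gene's transcripts, 7 of them most of their windows, and H4C14 and H4C15 all of them. Among the 11 genes tested the highest share was that of H2BC12, 22.5%. Only uniquely mapped reads were counted. The canonical transcripts of 3 genes, none of them tested, overlap another counted gene: H2AC7, H2AC21 and H4C3. For H2AC7 that gene lies on the same strand, so its shared windows (82%) may be the same bases and not a copy. Among the genes tested, H2AC6, H2BC5, H3C6 and H4C5 overlap GENCODE genes on the same strand that are not among the counted genes. H4C8 overlaps such genes on the other strand. What these overlaps did to the counts was not tested. The longer annotated span of H2BC5 overlaps a counted gene on the other strand, and how the counting used strand is not given in the sources used here.

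Among the genes that make, end and turn over histone messages, most did not pass the test, and more fell than rose. Over all genes tested, 10.4% were lower and 10.2% higher, the shares to set beside each list count below. Of 10 tested genes of histone gene transcription, 3 fell and 0 rose (0 at an unadjusted p under 0.05 and 0 by DESeq2). They were CCNE2, CCNE1 and CDK2, the cyclins E and their kinase, with log2 fold changes of -1.82, -0.82 and -0.79. NPAT went from 12.04 ± 0.535 to 9.79 ± 1.28 CPM (SD, n = 3 each), with no overlap between the groups and a log2 fold change of -0.30 (SE 0.101, edgeR adjusted p = 0.0513). The median of the list was -0.07.

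Of 18 genes of histone pre-mRNA 3′ end processing, 4 fell and 1 rose, with a median of -0.12. SLBP fell from 64.1 ± 2.4 to 55.1 ± 1.75 CPM (log2 fold change -0.22, SE 0.0522, edgeR adjusted p = 0.0098). SNRPB, a protein of the snRNP core, fell by 0.32 on the log2 scale, SNRPG and CSTF2 fell by 0.26 and 0.35, and CPSF1 rose by 0.33. Of 22 genes of histone message translation and decay, 5 fell and 0 rose (0 at an unadjusted p under 0.05 and 0 by DESeq2), with a median of -0.09. They were LSM5, LSM4 and LSM3, subunits of the Lsm ring, the exonuclease gene ERI1 (log2 fold change -0.43) and SLBP. Of 20 genes of general cleavage and polyadenylation, CPSF1 rose and CSTF2 fell, with a median of -0.02, and PAPOLA, the poly(A) polymerase gene, was at 136.1 CPM in NC and 132.1 in siEIF1 (edgeR adjusted p = 0.562).

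Of 23 histone chaperones and related genes, 12 fell and 1 rose, against 10.4% and 10.2% of all genes tested. The median of the list was -0.17. ASF1B and HJURP, chaperones of H3 with H4 and of CENP-A, fell by 1.82 and 1.48 on the log2 scale, and CHAF1A, the large subunit of the replication-coupled assembly factor, fell by 0.98. Of 11 tested replacement histones and variants, 8 fell and 1 rose, with a median of -0.34. H3-3B, which encodes H3.3, lay at 574, 571 and 560 CPM in NC and 286, 282 and 273 CPM in siEIF1, and fell by 1.02 on the log2 scale (SE 0.0467, edgeR adjusted p = 5.5e-08). CENPA, the centromeric H3, fell by 1.62, MACROH2A1 by 0.88, H2AZ1 by 0.76 and H2AX by 0.63. H3-3A, which encodes the same H3.3 protein, rose with a log2 fold change of 0.27. The deposited FPKM of H3-3B were 75.9 in NC and 36.9 in siEIF1.

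Of 51 S phase genes, all tested, 49 fell and 0 rose (0 at an unadjusted p under 0.05 and 0 by DESeq2). Of those that fell, 25 fell more than 2-fold, and the list median was -0.91. Of all genes tested, 10.4% were lower and 1.31% lower by more than 2-fold. RPA2, FEN1, MCM4, MCM5, E2F1 and RRM2, genes of replication and its control, fell by 1.28, 1.11, 1.11, 1.03, 1.84 and 1.73 on the log2 scale. The summed CPM of the 51 genes was 1380 to 1440 in NC and 927 to 935 in siEIF1. In the same libraries the 44 histone genes summed to 42.1 ± 2.92 CPM in NC and 66.5 ± 5.57 in siEIF1. The part of S phase genes, of the oligo(dT) selection and of SLBP in the histone result was not tested.

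**Figure D5:**
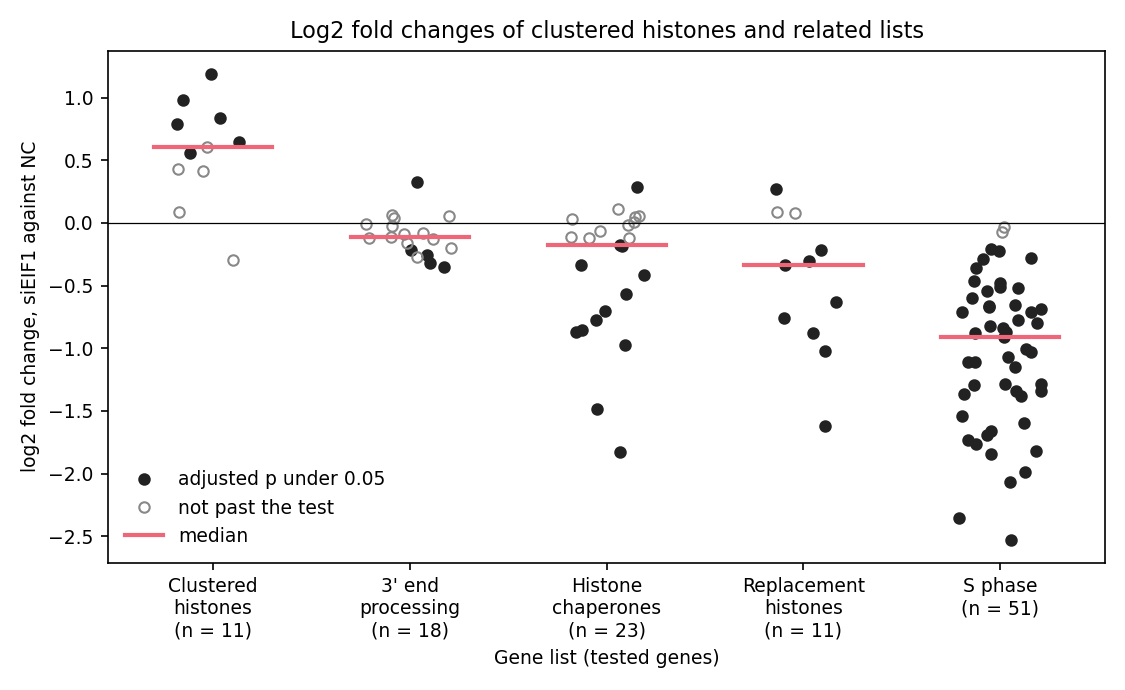
Log2 fold change (siEIF1 against NC, edgeR) of each tested gene in 5 lists, with genes at an adjusted p under 0.05 filled and the list median as a line. The medians are 0.61 for the clustered histones, -0.12 for 3′ end processing, -0.17 for chaperones, -0.34 for replacement histones and -0.91 for S phase.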

How the data were processed

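RNA-seq was measured in 3 NC and 3 siEIF1 libraries of ARPE-19 cells, grouped and numbered by their titles. The authors discarded reads with more than 2 undetermined bases, trimmed them with FASTX-Toolkit 0.0.13, dropped those under 16 nt and used HISAT2 to align what was left to GRCh38, allowing 4 mismatches. The authors deposited raw counts of uniquely mapped reads per gene, with no normalization, and FPKM values for 30275 of the 30618 genes. The labels describe a directional library. The counting program, its strand setting and the annotation release are not given in the sources used here. All columns were matched to a library (0 unmatched).

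Counts were tested with edgeR 4.0.16 in R 4.3.3 (filterByExpr, TMM, quasi-likelihood test, Benjamini-Hochberg adjustment over all genes). Standard errors come from the quasi-likelihood statistic. Calls used an adjusted p under 0.05, alone or with a fold above 2 or under 0.5 as in the study's methods. The tests were tested on simulated data. Alternatives were other normalizations and filters, DESeq2 1.42.0, limma 3.58.1 on log2(FPKM + 1) and log2(FPKM + 0.1), glmTreat at 1.5-fold, the replicate number as a block and leaving out each library. Depth, as total counts, sets the precision, and counts under 10 give wide errors. Stem-loops, lengths, overlaps and shared windows of 100 bases came from GENCODE release 44, and start regions from RefSeq.

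The members and gene lists were chosen with earlier results of these data known. Named are members above the count filter, EIF1, SLBP and NPAT, and in each list up to 6 genes past both limits, or else the 2 with the smallest p. Members under the filter, and other list genes, were named after their values were seen. Some lists share genes: CCNE1 and CCNE2 are in both the transcription and the S phase list. RPE65 and TTR were not analysed here.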

Additional observations from a re-analysis of the deposited data

How the results depend on the processing

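The 6 histone genes higher at an adjusted p under 0.05 were 6 under other normalizations, other filters, DESeq2 and limma, and 7 with no count filter, where H2BC8 joined. Leaving out each library gave 5 to 7. The count past 2-fold, 1 gene, was 2 with no count filter, 0 with limma on log2(FPKM + 1) or log2(FPKM + 0.1), where the pseudocount shrinks low levels (6 higher by adjusted p alone and 7 at an unadjusted p under 0.05), and 0 with glmTreat against 1.5-fold (4 at an unadjusted p under 0.05). With adjusted p alone it was 6, and it ranged from 1 to 3 when a library was left out. Leaving out NC replicate 3 gave 2 genes and leaving out siEIF1 replicate 3 gave 3, since H2BC5 passed 2-fold in both (log2 fold change 1.06 and 1.05) and H2BC8 passed the filter and the test in the latter. There H2BC8 passed the filter only through its siEIF1 counts (13 and 18, against 2, 4 and 2 in NC), so this call adds no support for a rise. Under glmTreat none of the 6 genes was called, with adjusted p from 0.0566 (H3C6) to 1. The log2 fold change ranged from -0.069 to 0.27 for H2AC11 and from -0.64 to 0.20 for H4C5 when a library was left out, and changed sign without NC replicate 2 or siEIF1 replicate 1. The cause was not tested. For H3, the ratio of summed CPM was 2.28 over the genes that pass the filter, which leaves H3C6 alone. With the replicate number as a block, edgeR called 6 members higher, 1 past 2-fold and 0 lower (0 at an unadjusted p under 0.05), and the call of each of the 11 members was as without it. Over all genes, calls at an adjusted p under 0.05 went from 3446 to 4277 under the block, and the list genes were not given under it. Correlations of log CPM, centred within each group, between libraries with the same number were 0.149, 0.0946 and 0.128. They were not compared with those between different numbers, so whether the libraries were paired was not tested. The other alternatives run for EIF1, the member counts and the sums by class and chromosome left them on the same side of the threshold, within 1.5 times or within the spread between replicates. The counts of the gene lists were rerun with DESeq2 alone and were the same. No alternative was run for the levels of single list genes, the list medians, the chromosome 6 groups or the sets by annotated transcript end. Depth limits the 33 genes with fewer than 50 counts. Of these, only H2BC8 had an adjusted p under 0.05 in the edgeR fit with no count filter, on 8 counts in NC and 36 in siEIF1. For each of the 6 genes that rose, that fit gave a smaller adjusted p than the main fit, so its call of H2BC8 is weak support. The oligo(dT) selection and the authors' gene models limit what a histone count stands for.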
